A study of Homo sapiens with 8 samples.

Results

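The nuclear genes for subunits of the oxidative phosphorylation complexes were examined for poly(A) sites in Kelly neuroblastoma cells. Members were all GENCODE protein-coding genes whose symbols begin with NDUFA, NDUFB, NDUFC, NDUFS, NDUFV, UQCR, COX4 to COX8, ATP5F, ATP5M or ATP5P, and SDHA to SDHD, without assembly factors. This gave 89 of 19389 protein-coding genes. Symbols that join a member with its neighbour accounted for 2 of them (ATP5MF-PTCD1 and NDUFC2-KCTD14) and are left aside below. Of the 87 genes described, 37 belong to complex I, 4 to complex II, 9 to complex III, 19 to complex IV and 18 to complex V, with NDUFA4 and NDUFA4L2 placed in complex IV. The symbols do not capture CYC1, the cytochrome c1 subunit of complex III, which was counted among the other genes of the pathway.

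The study used poly(A) 3′-sequencing, which reads transcripts from the junction with the poly(A) tail, to ask where transcripts end when the transcriptional kinases CDK12 and CDK13 are inhibited. Kelly WT is a human neuroblastoma line with amplified MYCN. Kelly E9R is a derivative of it that carries a CDK12 point mutation at the cysteine to which the covalent inhibitor THZ531 binds. Both were treated for 6 h with DMSO or with 400 nM THZ531 according to the labels (the study's methods name a lower dose for these lines), in 4 groups of 2 libraries. The values analysed here come from 1 list of peaks called on the merged reads of all 8 libraries. The list has no value per library, so the depth of each library is unknown, no value below has a replicate, and neither the treatments nor the lines could be compared. All comparisons below are between genes within this pool, as counts and medians with no test.

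Oxidative phosphorylation passes electrons from NADH and succinate along complexes I to IV of the inner mitochondrial membrane to oxygen, and complex V uses the resulting proton gradient to make ATP. Complex II is encoded by nuclear genes alone, whereas the other complexes combine subunits from the nucleus with a few from the mitochondrial genome. The nuclear subunits are mostly small proteins made in all cells, and several subunits of complex IV exist in tissue-specific forms.

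Sequences before the ends of peaks are shown for the strongest peak of a member of each complex and for the gene families discussed below. Each is a stretch of 30 bases of GRCh38 on the gene's strand, 5′ to 3′, taken from the last 50 bases before the peak's 3′ end, with the poly(A) signal motif in capitals where 1 of 12 known motifs was found there.
NDUFS5 (complex I, chr1:39034592-39034621, forward): aaAATAAAggattgctccatcctatttgtt
SDHB (complex II, chr1:17018732-17018761, reverse): aagaAATAAAtgttattctactttattaac
UQCRH (complex III, chr1:46316750-46316779, forward): ctaAATAAAagttctatgatctgcaaacct
UQCRHL (intronless copy of UQCRH, chr1:15807179-15807208, reverse): tctaAATAAAagttctgtgatctgcaaaaa
COX8A (complex IV, chr11:63976518-63976547, forward): taacAATAAAatctatttaaactttacttc
COX4I1 (complex IV, ubiquitous form, chr16:85806976-85807005, forward): gctAATAAAtgaccagtttacctgaaaccc
COX4I2 (complex IV, tissue-specific form, chr20:31644980-31645009, forward): taaccccAGTAAAgctccaaaaaaaaattt
ATP5MC1 (complex V, c-ring, chr17:48895843-48895872, forward): tttaccATTAAAcacaacgtttctctaaac
ATP5MC2 (complex V, c-ring, chr12:53665162-53665191, reverse): AATAAAtactgtattaataagatgtttctt
ATP5MC3 (complex V, c-ring, chr2:175178138-175178167, reverse): tttcATTAAAgatgaaaactttaatttctt
ATP5MG (complex V, chr11:118409174-118409203, forward): tctgAATAAAataagatttgtcaaaactca
ATP5MGL (intronless copy of ATP5MG, chr22:42639859-42639888, reverse): tctgAATAAAataagatttgtcagaaattc
The 3 ATP5MC genes encode the same mature c subunit of the ATP synthase rotor and differed in their signals: ATP5MC2 carried AATAAA, and ATP5MC1 and ATP5MC3 carried the variant ATTAAA. No motif was found in the same window for other strong members, of which the 3 shown next had the highest −log10 q. Their peaks ended past the annotated end of the gene, by 41 bp in ATP5PO, 110 bp in UQCR11 and 449 bp in NDUFB10. For ATP5PO, AATAAA was found within the last 100 bp. The NDUFB10 stretch lies past that gene and nearer to the end of RPS2 on the opposite strand (270 bp), so that it cannot be assigned to NDUFB10.
ATP5PO (complex V, chr21:33903412-33903441, reverse): ctgtcttttaaactggaatgtagaaggctt
UQCR11 (complex III, chr19:1597059-1597088, reverse): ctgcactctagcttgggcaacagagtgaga
NDUFB10 (complex I, chr16:1962395-1962424, forward): gcctttctctgcctccctgaaaacacgcca

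A peak was counted at a transcript end (TES peak) when it overlapped a window around an annotated end of the gene that starts 200 bp upstream and stops 600 bp downstream. Of the 87 genes, 80 (92.0%) had a TES peak, whereas 64.5% of all protein-coding genes did. The share was 98.7% of 77 cytosolic ribosomal protein genes, 94.9% of 78 mitochondrial ribosomal protein genes and 93.0% of 57 assembly factors and electron carriers. By complex, TES peaks were found for 97.3% of complex I genes, all 4 of complex II, 88.9% of complex III, 73.7% of complex IV and all 18 of complex V.

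The strength of a peak is given by 2 quantities. The −log10 q is the peak caller's measure of how far the pileup exceeds the local background, and the pileup is the number of reads stacked at the summit, recovered from the deposited values. For the 80 genes, the median −log10 q of the strongest TES peak was 34.9, above the median of 18.7 over the 12500 coding genes that had one. The medians were 42.1 for cytosolic ribosomal protein genes, 25.5 for mitochondrial ribosomal protein genes and 22.6 for assembly factors and carriers. The strongest TES peak exceeded the all-gene median in 74 of the 80 genes and was among the highest 10% of all genes in 26. The median pileup was 36 reads, against 22 over all genes and 50.5 over cytosolic ribosomal protein genes.

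**Figure D1:**
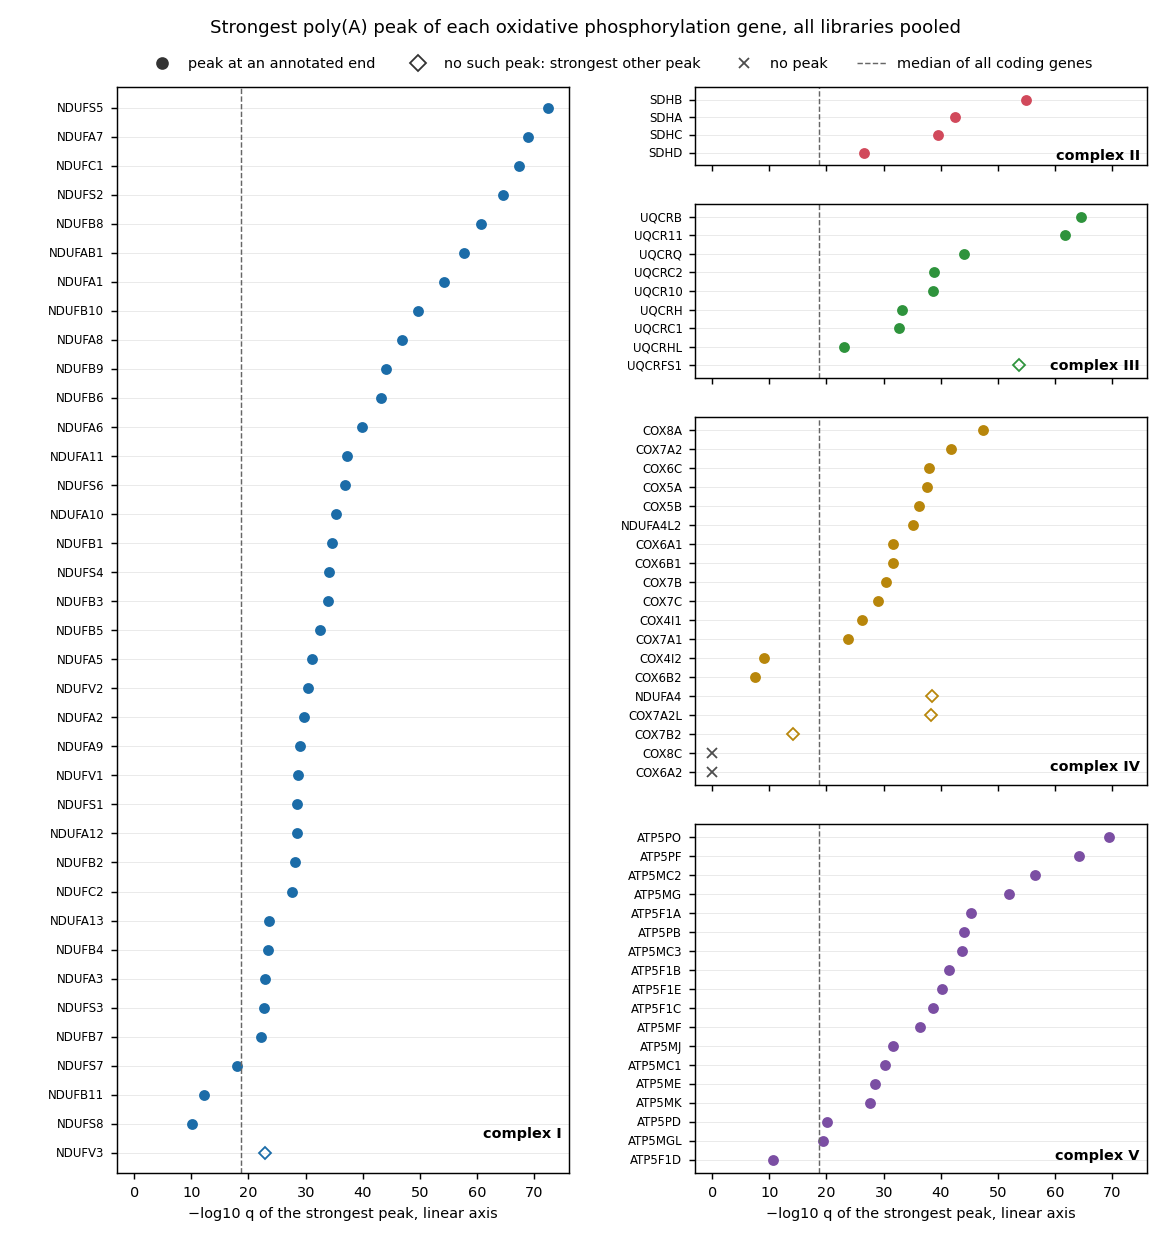
The −log10 q of the strongest peak of each of the 87 genes by complex, on a linear axis; filled circles are peaks at an annotated end, open diamonds the strongest other peak of genes without one, crosses genes with no peak, and the dashed line the median over all coding genes (18.7). Most circles lie right of the line, with NDUFS5 highest at 72.3, and the lowest values are in COX6B2 and COX4I2.

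Complex I, the NADH dehydrogenase, held the strongest peak of the set. NDUFS5, an accessory subunit on the intermembrane side, had a −log10 q of 72.3 and a pileup of 63 reads. It was followed by the accessory subunits NDUFA7 (−log10 q 68.9, pileup 57) and NDUFC1 (−log10 q 67.3, pileup 56). The lowest values of the complex were those of NDUFS8, a core subunit that binds iron-sulfur clusters (−log10 q 10.2, pileup 14), and NDUFB11 (−log10 q 12.2, pileup 17). NDUFS7, another iron-sulfur core subunit, was next with a −log10 q of 18.05. Genes of this complex thus ranged from below the all-gene median to the top of the set.

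In complex II, succinate dehydrogenase, the values lay closer together. SDHB, the iron-sulfur subunit, had the strongest peak (−log10 q 54.8, pileup 43). SDHA, which holds the flavin and oxidises succinate, reached a −log10 q of 42.5 with a pileup of 36. The membrane anchors SDHC and SDHD had −log10 q values of 39.4 and 26.5 and pileups of 45 and 30, so that SDHC had the highest pileup of the complex although SDHB had the highest −log10 q.

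In complex III, the cytochrome bc1 complex, UQCRB had a −log10 q of 64.5 and the highest pileup of all members, 79 reads, in a peak of 679 bp. UQCR11 followed (−log10 q 61.8, pileup 64), although its peak ends 110 bp past the annotated end and the sequence there runs into 15 consecutive A. UQCRQ was the third at 44.1. The core proteins UQCRC1 and UQCRC2 had −log10 q values of 32.7 and 38.7.

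In complex V, ATP synthase, the strongest peaks were those of ATP5PO (−log10 q 69.4, pileup 54) and ATP5PF (64.2, pileup 58), both of the peripheral stalk, and of ATP5MC2 (56.5, pileup 50). The catalytic β subunit gene ATP5F1B had a −log10 q of 41.4 and the α subunit gene ATP5F1A 45.4. ATP5F1D, the δ subunit of the central stalk, was lowest at 10.7 with a pileup of 17. ATP5MGL was the next lowest at 19.3, in a peak that also lay in CYB5R3 on the same strand.

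Complex IV, cytochrome c oxidase, contains most of the genes without a TES peak and most of the tissue-specific isoforms. For COX4, the ubiquitous form COX4I1 had a −log10 q of 26.2 and a pileup of 28, and COX4I2, the form known from lung, a −log10 q of 9.08 and a pileup of 8. For COX6B, the somatic form COX6B1 had 31.6 and the testis form COX6B2 7.57, the lowest value of all members with a TES peak. For COX6A, the ubiquitous form COX6A1 had 31.6, and COX6A2, the form of heart and skeletal muscle, had no peak. For COX8, the ubiquitous form COX8A had 47.3, the highest of the complex, and the testis form COX8C had no peak. For COX7B, the ubiquitous form had 30.4, and COX7B2, a testis form in a gene of 174 kb, had no TES peak and 1 intronic peak. In these 5 pairs the ubiquitous form had the stronger TES peak, or the only one.

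The COX7A and NDUFA4 families could not be ordered in the same way, because peaks in the list carry no strand. COX7A2, the ubiquitous form, had a −log10 q of 41.8. COX7A1, the muscle form, had a TES peak with a −log10 q of 23.7, but this peak ended 680 bp past the end of COX7A1 and 97 bp past the end of CAPNS1 on the opposite strand. Likewise, the TES peak of NDUFA4L2 (−log10 q 35.1) lay 407 bp past its end and 67 bp past that of SHMT2 on the opposite strand. A single peak of 637 bp with a pileup of 70 lay at the facing ends of NDUFB10 and RPS2, a cytosolic ribosomal protein gene, and ended 449 bp past the former and 270 bp past the latter. The strongest TES peak of ATP5MK ended 607 bp past it and lay near the end of TAF5. In these 4 genes the peak was nearer to the end of the opposite-strand gene than to that of the member, and signal from both genes cannot be told apart. For 28 of the 80 genes the strongest TES peak also overlapped another gene of either strand. This count includes the joined symbols ATP5MF-PTCD1 at ATP5MF and NDUFC2-KCTD14 at NDUFC2.

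Of the 7 genes without a TES peak, 4 had a peak in an exon that lies before the window around the annotated end. UQCRFS1, the Rieske iron-sulfur protein of complex III, had a −log10 q of 53.7 and a pileup of 53 at 290 bp after its stop codon, in an annotated 3′ UTR of 2228 bp. NDUFA4 had a −log10 q of 38.5 and a pileup of 38 at 422 bp of a 3′ UTR of 1693 bp. COX7A2L, which takes part in assembling complexes III and IV into supercomplexes, had a −log10 q of 38.2 and a pileup of 39 at 723 of 1881 bp. NDUFV3, a subunit of the NADH-oxidising module, had 6 exonic peaks, the strongest with a −log10 q of 22.96 at 2911 of 4278 bp. The last of them (−log10 q 9.52, pileup 18) ended 211 bp before the annotated end, just outside the window. The strongest exonic peaks of these 4 genes were thus above the all-gene median for TES peaks. Only COX6A2 and COX8C had no peak, and COX7B2 had only the intronic one (−log10 q 14.2, pileup 11).

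The same pattern was found in members with TES peaks whose annotated 3′ UTR was long. The 3′ UTRs of the members were short in general, with a median of 192 bp in the canonical transcript, against 1039 bp over all coding genes, and 51 of the 87 were under 250 bp. In 19 members the annotated 3′ UTR was over 1000 bp. The position of the strongest peak after the stop codon could be measured in 16 of these, and was not measured in ATP5F1E, COX6B2 and UQCR11, where no peak followed the stop codon or the stop codon was not in the last exon. In 15 of the 16 (93.8%) the strongest peak lay nearer to the stop codon than to the annotated end, the exception being NDUFV3. Over all coding genes with a 3′ UTR over 1000 bp, this held for 2687 of 7315 (36.7%). Among cytosolic ribosomal protein genes it held for 15 of 16, among mitochondrial ribosomal protein genes for 16 of 20, and among assembly factors and carriers for 17 of 24.

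The median distance from the stop codon to the strongest peak was 441.5 bp in the 16 members and 1468 bp in the 7315 genes. NDUFS1, a core iron-sulfur subunit of complex I, had the longest annotated 3′ UTR of the set (9368 bp), and its strongest peak lay 475 bp after the stop codon. In UQCRB the peak lay at 543 of 8108 bp and in NDUFA9 at 401 of 7209 bp. In ATP5F1A it lay at 139 of 4034 bp, in COX7B at 127 of 2115 bp and in ATP5MC3 at 150 of 2030 bp. Over the 72 members with a measured position, the median was 199 bp, close to the 192.5 bp of their annotated 3′ UTRs, since most ended at the annotated end.

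**Figure D2:**
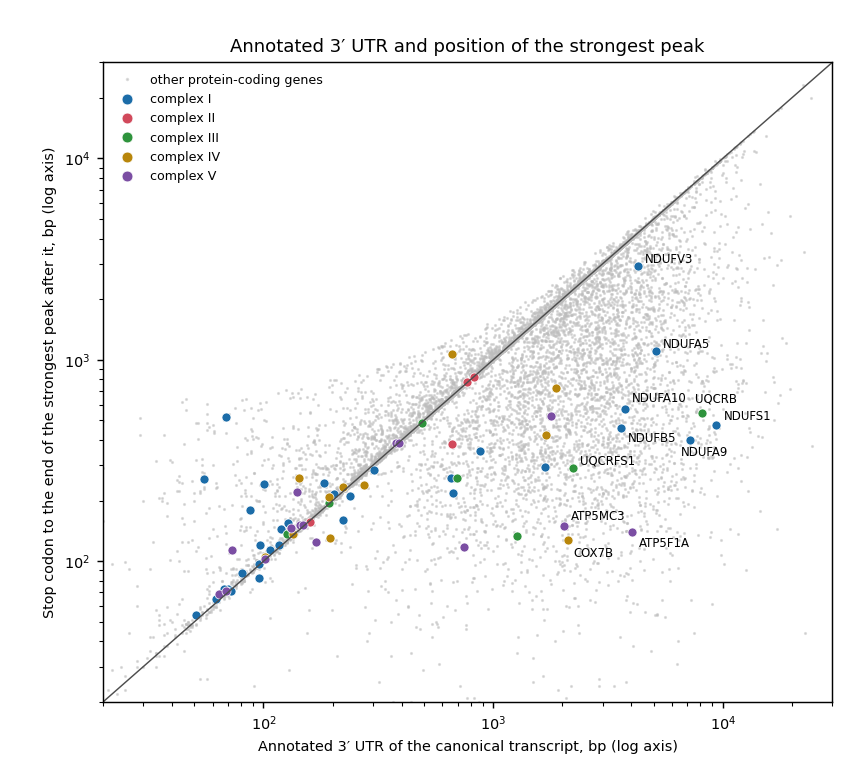
Length of the annotated 3′ UTR of the canonical transcript (x) and distance from the stop codon to the 3′ end of the strongest peak after it (y), in bp on log axes; coloured points are members by complex, grey points other protein-coding genes, and the line marks equal lengths. Members with short 3′ UTRs lie along the line, and those over 1000 bp lie below it, with NDUFV3 nearest to it.

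The annotated distal ends of these long 3′ UTRs were also in use in part of the genes. Of the 19 members, 7 had a peak within 100 bp of the canonical end. The proximal peak was chosen as the strongest after the stop codon, so the distal peak of these 7 genes is weaker by −log10 q by definition. The pileups of both are given for description. In NDUFC2 the distal peak had a pileup of 24 and the proximal one 32. In NDUFS1 the values were 19 and 37, in NDUFA10 18 and 37, and in NDUFA9 15 and 32. In ATP5F1A they were 14 and 43, in ATP5MC3 18 and 47, and in ATP5PB 18 and 53.

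In total, 30 of the 87 genes (34.5%) had 2 or more TES peaks, against 24.5% of all protein-coding genes. Among genes with at least 1 TES peak the shares were close, 37.5% of 80 members and 38.0% of 12500 coding genes. Counting canonical transcript ends only, the share of the 87 genes was 6.90%. A single TES peak was found in 50 genes, 2 in 21, 3 in 4, 4 in 3 and more in 2. NDUFA10, an accessory subunit of complex I, had the most (6), of which the strongest had a pileup of 37 and the weakest, with a −log10 q of 2.23, a pileup of 3. NDUFA5 had 5 TES peaks with −log10 q values between 7.42 and 31.2, all in its last exon. NDUFV2, a core subunit that binds an iron-sulfur cluster, had 4, with pileups of 31, 16, 14 and 10. ATP5MG had 4, with pileups of 45 and 13 in its 3′ UTR and of 12 and 12 at an annotated end of a longer transcript, 23404 and 23831 bp past the canonical end. ATP5MC3 had 4, all in its last exon, with pileups of 47, 18, 17 and 15. In each of these 5 genes the strongest TES peak also had the highest pileup.

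At the strongest TES peak, AATAAA was found within the last 50 bp in 44 of 80 genes (55.0%), against 54.2% over all coding genes. Read on the other strand from the other edge of the peak, it was found in 4 of 80 (5%). ATTAAA without AATAAA was present in 9 genes and another of the 12 motifs in 11, leaving 16 (20%) without a motif, against 19.3% over all coding genes. By width, AATAAA was found at 20 of 26 members' peaks of 150 bp or less (76.9%, all genes 65.6%) and at 24 of 54 wider ones (44.4%, all genes 39.8%). Members' peaks were wider than those of other genes, with a median of 220.5 bp against 135 bp. TGTA, the core of the binding site of the cleavage factor CFIm, was found within 100 bp before the end in 57.5% of members and 52.1% of all genes. Over all widths, the shares with AATAAA and without a motif were thus near those of all genes. Within each width class the share with AATAAA was higher in members.

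The 3′ end of the strongest TES peak lay a median of 6 bp from the nearest annotated end (all coding genes 3 bp). It was within 10 bp in 42 genes and over 100 bp away in 18. For COX8A the distance was 11 bp, for NDUFS5 5 bp and for COX4I1 3 bp.

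The intronless copies were examined with their parent genes. UQCRH, the hinge protein that links cytochrome c1 to cytochrome c, had a −log10 q of 33.3 and a pileup of 39, and UQCRHL 22.99 and 19. ATP5MG had 52.0 and 45, and ATP5MGL 19.3 and 21. From the motif onward, 23 of 26 bases of the sequences printed above were identical between UQCRH and UQCRHL, and 22 of 26 between ATP5MG and ATP5MGL. At the peaks of the copies the genome held runs of 15 and 14 A, whereas at the parents the longest run was 3 A. The authors kept reads with up to 20 mapped places, so that signal of the parent placed on the copy, priming on the genomic A run and transcripts of the copy cannot be told apart. The peak of ATP5MGL also lay in CYB5R3 on the same strand, and signal of that gene cannot be told apart either.

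By name, 49 members had 184 processed pseudogenes, of which 6 (3.26%) held a peak, against 913 of 10658 processed pseudogenes in the annotation (8.57%). These were 1 copy each of UQCRB (−log10 q 17.2, pileup 18), NDUFV2 (15.9, pileup 13), ATP5MC1 (13.5, pileup 12), NDUFB10 (6.83, pileup 8), ATP5PO (5.92, pileup 7) and NDUFA5 (3.50, pileup 5). All were weaker than the TES peaks of their parents. The 6 members with such a copy are 6.90% of the 87, and the share was 1.15% when an overlap of at least 50 bp was required and 2.30% when peaks before A-rich sequence were left out. SDHA also has unprocessed copies, a kind that can keep introns: SDHAP1, SDHAP2, SDHAP3 and SDHAP4 held 7, 8, 8 and 0 peaks, with a highest pileup of 22. The other unprocessed copy of a member, NDUFA5P12, held none.

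Intronic peaks, the kind of site the study was concerned with, were found in 48 of 87 genes (55.2%), against 55.6% of all protein-coding genes. The median gene length was 10.5 kb, against 24.3 kb over all coding genes, and only 5 members exceed 45 kb. Since longer genes hold more intronic peaks (Spearman's rho 0.750 across the 87 members, which all come from the same pool of reads), each gene was set beside the median of its length bin, 1 of 20 bins built from intron-containing genes that had a TES peak. Of 78 such members, 29 (37.2%) were above the median of their bin, 40 at it and 9 (11.5%) below it, against 38.2% above and 33.3% below over all such genes. In the 4 bins of the shortest genes the median was 0, and no gene there can lie below it. Of the 41 members in the other bins, 19 were above the median, 13 at it and 9 below it. An intronic peak was found in 56.4% of the 78, where the genes of the same bins averaged 51.3%. Per 100 kb of intron, the members had 10.8 intronic peaks and all coding genes 7.23. These sets also differ in detectable ends, since 92.0% of the members and 64.5% of all coding genes had a TES peak. What part this has in the difference was not tested. Without the peaks that are followed within 50 bp by A-rich sequence, at which oligo(dT) can prime without a poly(A) tail, the densities were 3.12 and 1.67.

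**Figure D3:**
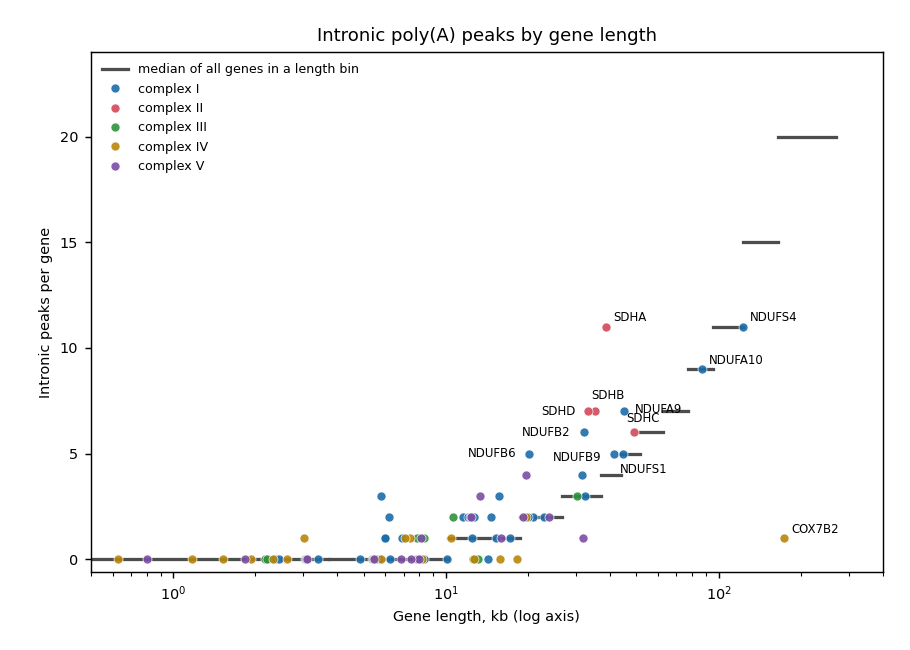
Number of intronic peaks (y) by gene length in kb on a log axis (x) for the 87 members, coloured by complex; horizontal bars are the median of all genes in each length bin. SDHA, SDHB, SDHC and SDHD lie above the bars of their bins, NDUFA10 on it, COX7B2 below it, and NDUFS4 at the border of bins with medians of 11 and 15.

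The genes of complex II had more intronic peaks than the median of their length in all 4 cases. SDHA had 11 where its bin had a median of 4, SDHB 7 with a bin median of 3, SDHD 7 with 3 and SDHC 6 with 5. Some of the SDHD peaks lay past its canonical end, by 11642, 13127, 18932 and 19345 bp, within a longer annotated transcript. The length of 33.1 kb that set its bin includes that transcript. The summed density of the 4 genes was 20.7 per 100 kb of intron, against 12.4 in complex I, 10.2 in complex III, 10.5 in complex V and 2.44 in complex IV. Most of the complex II peaks lay before A-rich sequence: 5 of 11 in SDHA, 7 of 7 in SDHB, 5 of 6 in SDHC and 6 of 7 in SDHD. Without these, 6 peaks were left in SDHA, 0 in SDHB, 1 in SDHC and 1 in SDHD, and the density was 5.33, against 4.03 in complex I. All intronic peaks of SDHA and of SDHD also lay in another annotated gene. In both cases it is on the same strand as the member and also covers the member's strongest TES peak. What part A-rich sequence, the other genes, and reads that map to both SDHA and its unprocessed copies have in the excess was not tested. With all intronic peaks counted, the density of complex IV was the lowest of the complexes. It stayed lowest without COX7B2 (5.32), which had 1 intronic peak where the median of its bin was 20. Without the peaks before A-rich sequence, complex III was lowest at 0, with 1.05 in complex IV and 2.33 in complex V. In complex I, NDUFB2 had 6 intronic peaks with a bin median of 3, including peaks 5146, 6820 and 12923 bp past its canonical end. NDUFB1 (3, bin median 0) and NDUFB6 (5, bin median 2) were, like NDUFB2, small accessory membrane subunits above their bins. The longest complex I genes were at or below theirs: NDUFS4, an accessory subunit of the NADH-oxidising side, had 11 in 122.7 kb with a bin median of 15 (its length is at the lower edge of that bin, and the bin below has a median of 11), and NDUFA10 had 9 with a median of 9. NDUFA9 had 7 with a median of 5.

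Most of the intronic peaks were weak and lay before A-rich sequence. Their median pileup was 11 reads, against 30 for all TES peaks of the members, and the highest was 30. Of 146 intronic peaks, 104 were followed by A-rich sequence and 53 also lay in another gene of either strand. Over genes with a TES peak and introns, the share before A-rich sequence was 71.4% of 140 members' peaks and 78.1% of 78523 peaks of all coding genes. A motif within the last 100 bp with no A-rich sequence was found at 20.7% and 16.3% of the same peaks. Within the last 50 bp, this combination was found at 25 of the 146 peaks in 15 genes, 4 of them in SDHA, and the highest pileup among these was 24. In NDUFB6, a peak with AATAAA and a pileup of 24 also lay in SMIM27. In NDUFB2, peaks with pileups of 24 and 23 also lay in ADCK2 and BRAF. In NDUFS1, a peak with ATTAAA and a pileup of 22 lay in no other gene, and in NDUFS4 a peak with AATAAA had a pileup of 18.

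A pair of features of the list bear on all of these levels. Above the lowest value, the background of 99.9% of 139133 peaks was a whole number of hundredths (within 0.0005), so that 100 times the background gives the reads within 10 kb of the summit. These numbered 126.5 at the members' median, 499 at NDUFB10 and 20 at COX4I2. The peak caller keeps by default 1 read per position and strand, which with reads extended to 100 bp would limit the pileup to 100 on a strand and 200 on both. The highest pileup in the list was 200, and 9 peaks of the nuclear chromosomes exceeded 100. Whether the default was used is not stated. Under it the pileup counts distinct read positions and not transcripts, and levels of abundant transcripts are compressed.

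The subunits encoded in the mitochondrial genome, most of whose transcripts have short poly(A) tails that oligo(dT) also primes, showed this limit most plainly. Only 5 of their 13 genes overlapped a peak: MT-ND1, MT-ND2, MT-ND5 and MT-ND6 of complex I and MT-CYB of complex III. The peak that overlapped MT-ND6 also spans the end of MT-ND5 on the opposite strand, and cannot be assigned to either gene. MT-ND3, MT-ND4, MT-ND4L and the genes of complexes IV and V (MT-CO1, MT-CO2, MT-CO3, MT-ATP6 and MT-ATP8) overlapped none. The 8 mitochondrial peaks had pileups of 100 to 200 reads, including the highest of the list, but fold enrichments over the local background of only 1.31 to 3.30, since 5959 to 15050 reads lay within 10 kb. A missing peak there does not show that transcripts were missing.

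**Figure D4:**
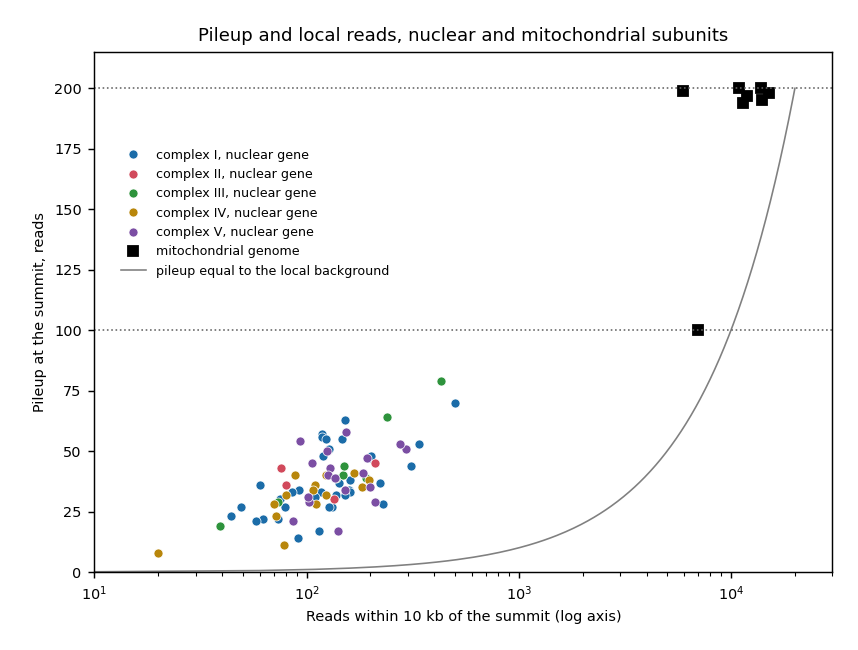
Pileup at the summit (y, reads) by reads within 10 kb (x, log axis) for the strongest TES peak of 80 members by complex and for the 8 peaks of the mitochondrial genome (squares); the curve marks a pileup equal to the background and dotted lines mark 100 and 200 reads. The nuclear members reach 79 at most, and 7 mitochondrial peaks lie just under or at 200. The 8 mitochondrial peaks lie above the curve, at fold enrichments of 1.31 to 3.30.

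Of the other nuclear genes of the pathway, 53 of 57 had a TES peak, with a median −log10 q of 22.6 and a median pileup of 26. CYC1 had a −log10 q of 15.8, and CYCS, which encodes cytochrome c, 46.9. The assembly factors TIMMDC1 of complex I and SURF1 of complex IV were among the strongest at 68.1 and 63.6. The cell type was checked with marker genes: all 8 markers of adrenergic neuroblastoma had a TES peak, with a median −log10 q of 39.5, whereas 3 of 8 markers of other cell types did. These were EPCAM and MYOD1, with −log10 q values of 6.22 and 7.71 and pileups of 6 and 7, and the collagen gene COL1A1. The peak of COL1A1 had a −log10 q of 19.75, above the all-gene median, and a pileup of 16.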

How the data were processed

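Members, gene lists and tests were chosen with earlier results of these data known, and the account of long 3′ UTRs and of peaks nearer to an opposite-strand end was added after the values were seen. According to the study's methods and the submitters' processing notes, the authors trimmed the reads, mapped them with STAR 2.5.1b to GRCh38, keeping reads with up to 20 places, merged all libraries, and called peaks with MACS2 2.1.1 on reads extended to 100 bp. The deposited list gives peak positions, a score (10 times the −log10 q), a fold ratio of pileup to background, and −log10 p and −log10 q; the list has no strand, and 0 columns belong to single libraries. Depth per library is unknown. A whole pileup was recovered for each peak from the fold and the −log10 p (largest deviation of −log10 p 0.000147).

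GENCODE release 44 basic transcripts without readthrough were used, with 0 peaks past a GRCh38 chromosome end. Peaks within a gene or 600 bp after it were assigned by at least 1 bp, in the order TES window, exon, intron, other. Peaks with 25 A (at most 3 mismatches) in the 50 bp after the end and none of 12 motifs in the 100 bp before were removed: 9 of 365, leaving 356 (127 TES, 61 exonic, 146 intronic, 22 other). The motifs, in order of priority and searched on both strands, were AATAAA and ATTAAA and AGTAAA and TATAAA and AATATA and AATACA and CATAAA and GATAAA and AATGAA and ACTAAA and AAGAAA and AATAGA. A-rich means 6 A in a row or 7 of 10. Named genes are the 3 strongest and 2 weakest of each complex, genes without a TES peak, the isoform families, and those with the most intronic peaks, TES peaks or pseudogenes holding a peak; others, such as genes with long 3′ UTRs, were named after their values were seen. Python 3.11.15, numpy 2.4.6, pandas 2.3.3 and scipy 1.17.1 were used, and the scripts were tested on simulated data.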

Additional observations from a re-analysis of the deposited data

How the results depend on the processing

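No paired analysis was possible because the peaks were called on merged reads and no column belongs to a single library, and for the same reason no library could be left out. Of 73 recomputed values, 60 stayed within the 95% interval of the main value and 13 did not; an alternative chosen after seeing the data, which left out the 4 genes whose peak is nearer to an opposite-strand end, moved none of the 8 values. Taking canonical transcript ends only gave 83.9% of genes with a TES peak, a median −log10 q of 30.3, a median pileup of 31 and 6.90% with 2 or more TES peaks. A TES window of 100 bp to either side gave 25.3% with 2 or more. Removing all peaks before A-rich sequence gave 26.4% of genes with an intronic peak, 3.12 intronic peaks per 100 kb of intron and 2.30% with a processed pseudogene that holds a peak (6.90% in the report's setting). Requiring a −log10 q of at least 5 gave 8.31 intronic peaks per 100 kb. An overlap of at least 50 bp gave 1.15% with such a pseudogene, and leaving out genes with an opposite-strand gene 2.13%. Counting ATTAAA with AATAAA gave 66.3% of genes with a motif, and any of the 12 motifs within 100 bp 90%.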
